A study of Mus musculus with 9 samples.

Results

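The 39 genes described here act in germ cells and meiosis, and were chosen by name: a row of the array belongs to the set when the platform annotation gives it 1 of these symbols. They were matched by 41 transcript clusters, the array's unit for a gene, of 35557 in the table, since Hormad1 and Dppa3 had 2 clusters each. Total RNA was taken from mouse embryonic stem (ES) cells of 3 genotypes, wild type (WT), Dgcr8 knockout (Dgcr8 KO) and Dicer knockout (Dicer KO), with 3 single-colour arrays per genotype. Dgcr8 works with the nuclease Drosha in the nuclear Microprocessor, which makes the precursors of canonical microRNAs. Per the study, the Microprocessor also cuts hairpins in the mRNA of Dgcr8 itself. Dicer cuts both canonical microRNAs and other small RNAs such as endogenous siRNAs. The mutants carry no drug treatment or transgene in the labels, and WT cells are the control for both. The sources used here name no second line or clone of any genotype, so cell line and genotype cannot be told apart. The study calls the 3 arrays of a genotype biological replicates. Per the labels the cells were plated in triplicate, so p-values measure the spread between plates, which may be technical.

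Germ cells enter meiosis by holding sister chromatids together with meiosis-specific cohesins, pairing homologous chromosomes along the synaptonemal complex, and cutting and repairing DNA by recombination. A separate set of germline proteins loads and amplifies piRNAs, small RNAs that guide Piwi proteins to transposons. In other tissues many of these genes are kept off by methylation of CpG-rich promoters, and in ES cells also by a Polycomb complex that carries E2F6, Max and Mga and binds E2F-type and E-box motifs.

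The promoter sequences of 4 members are given first, because Sohlh2 and Hormad1 had the 2 largest rises in Dgcr8 KO cells and Smc1b and Tuba3a those in Dicer KO cells. Hormad1 takes that place by its second cluster (1.96 on the log2 scale), which may read a copy of the gene. By its first it is level with Tex11 (both 1.56), for which no promoter sequence was matched. Each line holds the 150 bases before the RefSeq start (assembly GRCm38.p6), in the direction of transcription, with CpG pairs in capitals. Sohlh2 lies at chr3:55181894-55182043 on the plus strand (11 CpG pairs), Hormad1 at chr3:95559527-95559676 on the plus strand (14), Smc1b at chr15:85131958-85132107 on the minus strand (17) and Tuba3a at chr6:125286082-125286231 on the minus strand (4).
Sohlh2: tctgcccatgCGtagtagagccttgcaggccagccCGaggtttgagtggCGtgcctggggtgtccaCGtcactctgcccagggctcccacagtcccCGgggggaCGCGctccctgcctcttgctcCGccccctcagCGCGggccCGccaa
Hormad1: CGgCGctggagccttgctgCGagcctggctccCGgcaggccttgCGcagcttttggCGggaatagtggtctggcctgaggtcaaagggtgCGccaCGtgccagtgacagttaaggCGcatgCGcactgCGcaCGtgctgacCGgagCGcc
Smc1b: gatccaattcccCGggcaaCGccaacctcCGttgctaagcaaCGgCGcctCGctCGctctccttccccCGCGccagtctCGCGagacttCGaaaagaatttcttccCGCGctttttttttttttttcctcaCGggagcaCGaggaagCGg
Tuba3a: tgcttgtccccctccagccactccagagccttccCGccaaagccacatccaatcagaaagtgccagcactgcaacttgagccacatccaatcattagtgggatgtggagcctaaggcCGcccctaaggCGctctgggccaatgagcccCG

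In these stretches the E2F-type letters GCGGGAA begin 95 bases before the start of Hormad1, and lie on the other strand 48 bases before the start of Smc1b and 120 before that of Tuba3a. The E-box letters CACGTG begin 57 and 20 bases before the start of Hormad1, and neither motif is in the stretch shown for Sohlh2. Methylation was not measured in these samples, and a match is a match of letters only.

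Across the set, members moved in both directions in both mutants. In Dgcr8 KO cells 11 of 41 clusters (26.8%, 10 genes) were higher than in WT, beside 15.72% of all transcripts counted, and 13 clusters (31.7%, 12 genes) were lower, beside 17.29%. In Dicer KO cells 14 clusters (34.1%, 13 genes) were higher, beside 17.77%, and 7 (17.1%, 6 genes) were lower, beside 19.07%. When the mutants were set against each other, 5 clusters (12.2%) were higher in Dgcr8 KO, beside 11.19% of all transcripts, and 12 (29.3%) were lower in Dgcr8 KO cells than Dicer KO cells, beside 13.4%. At this threshold the share lower in Dicer KO and the share higher in Dgcr8 KO against Dicer KO were near their backgrounds and the other shares lay above theirs. With a 1.5-fold requirement as well, those 2 shares also lay above their backgrounds, and by SAM the second lay below its own. The members were chosen with earlier results of these data known, so shares above background are no test of the set. A transcript was called when limma's p, corrected for the 23002 transcripts tested by Benjamini-Hochberg, was under 0.05. The median log2 ratio over the members was -0.03 in Dgcr8 KO, 0.03 in Dicer KO and -0.08 for Dgcr8 KO to Dicer KO, beside -0.01, -0.06 and 0.03 over all transcripts counted. Both mutant ratios use the same 3 WT arrays, so the ratios of a gene in the mutants are not independent of each other. Counts for the role groups and marker lists below have the same shares of all transcripts as background, and most of these groups hold few clusters.

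**Figure D1:**
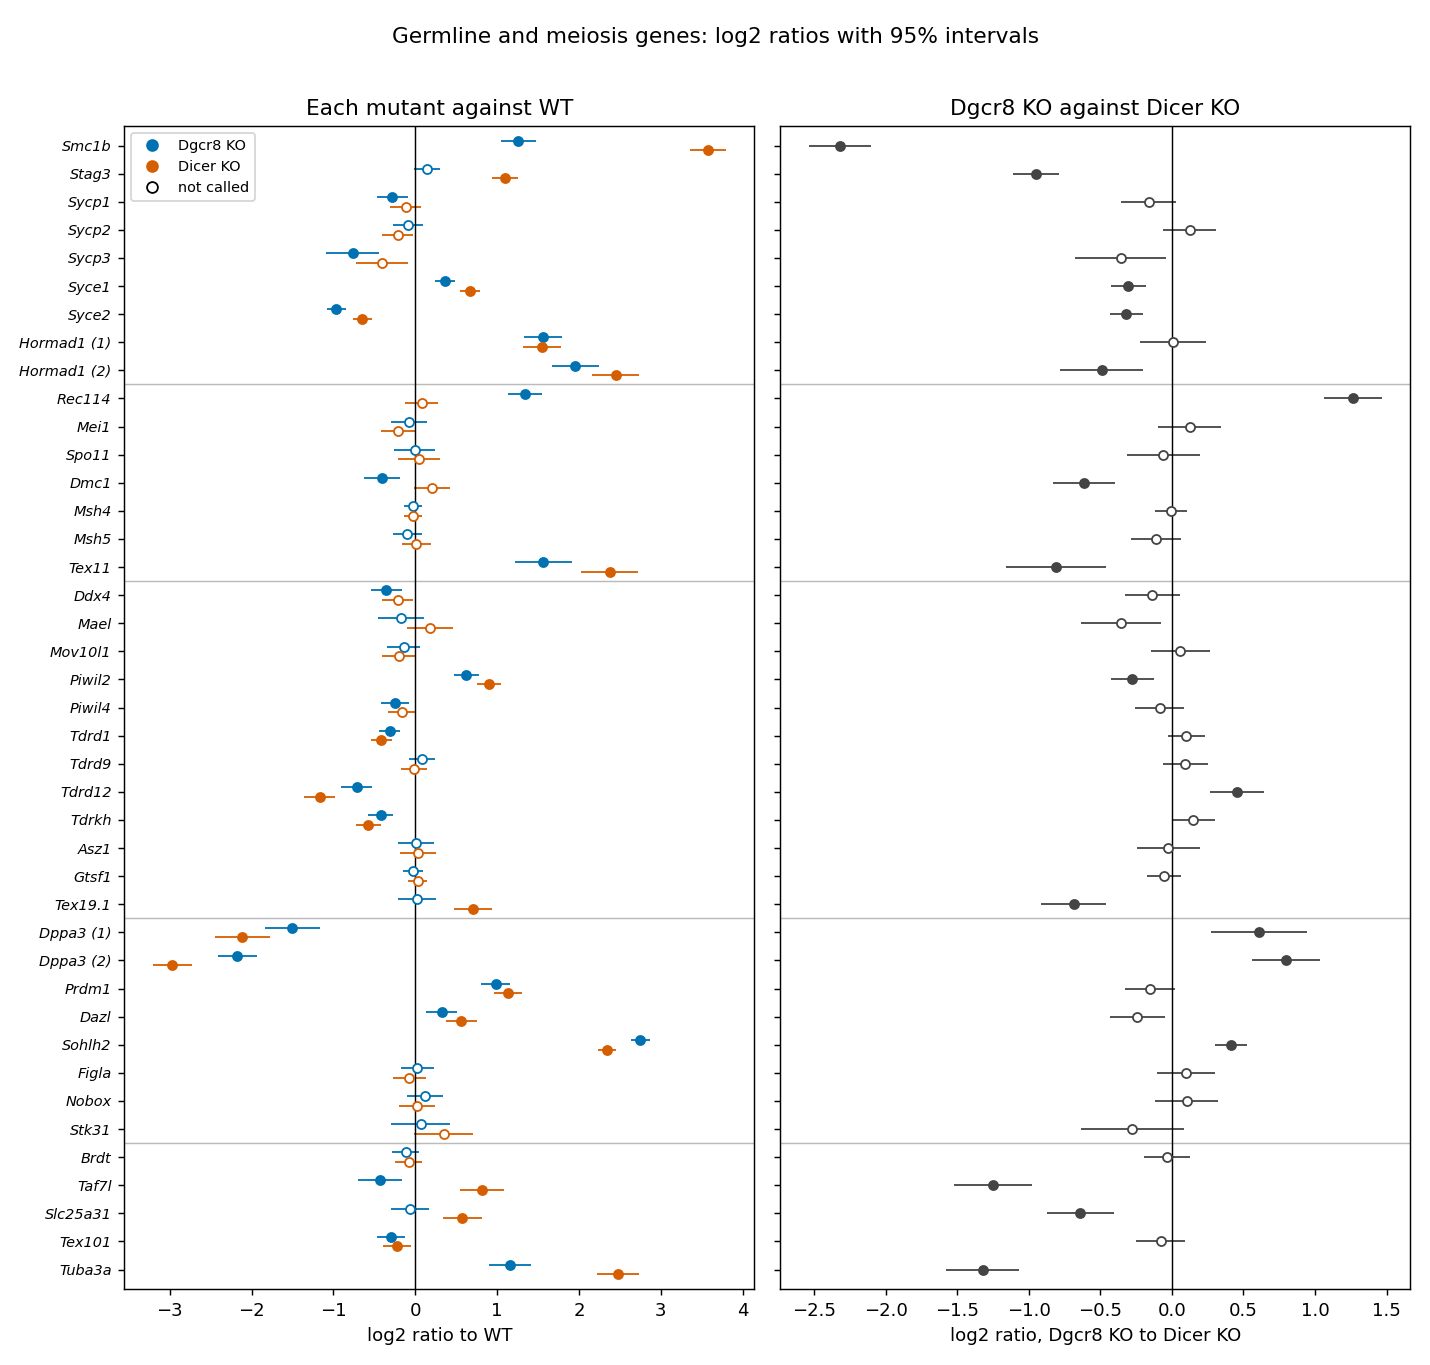
Log2 ratios of the 41 clusters with their 95% intervals, each mutant against WT on the left and Dgcr8 KO against Dicer KO on the right; filled points were called at an adjusted p under 0.05, and grey lines part the groups by role (cohesin and synaptonemal complex, recombination, piRNA pathway, specification and regulators, spermatogenic genes). Smc1b (3.58) has the highest ratio in Dicer KO cells and Sohlh2 (2.75) in Dgcr8 KO cells, while the second Dppa3 cluster has the lowest in both (-2.97 and -2.17), followed by the first Dppa3 cluster (-2.11 and -1.50).

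The labels were checked on the targeted genes. Dgcr8 was 9.76 to 9.82 (log2 level) in WT and 8.74 to 8.96 in Dgcr8 KO cells, and Dicer1 was 10.18 to 10.23 in WT and 8.32 to 8.43 in Dicer KO cells. In the line that lacks it, Dgcr8 fell by 0.94 and Dicer1 fell by 1.84 on the log2 scale. Embryonic stem cell markers were high on every array. Their medians over 13 clusters were 10.85 to 10.91 in WT, 10.99 to 11.05 in Dgcr8 KO and 10.61 to 10.65 in Dicer KO. In Dgcr8 KO 7 clusters were higher (53.8%, beside 15.72% of all transcripts) and 1 was lower (7.7%, beside 17.29%). In Dicer KO 7 were higher (53.8%, beside 17.77%) and 3 lower (23.1%, beside 19.07%). Nanog rose 1.70-fold and 2.14-fold (adjusted p = 1.8e-06 and 1.4e-07). Utf1 fell by 0.45 and 0.51 (adjusted p = 8.2e-05 and 3.2e-05), and Sall4 (-0.26) and Dppa4 (-0.22) fell in Dicer KO. The part of the stem cell markers in the levels of the germline members was not tested. The largest component of the spread between replicates, 40.8% of it, placed WT replicate 1 and Dgcr8 KO replicate 2 at its ends. Without these arrays 10 members rose and 10 fell in Dgcr8 KO, 14 rose and 8 fell in Dicer KO, and 5 were higher and 15 lower for Dgcr8 KO to Dicer KO.

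Cohesin and synaptonemal complex genes held the largest rise of the set. Of their 9 clusters, 4 rose and 3 fell in Dgcr8 KO cells, 5 rose and 1 fell in Dicer KO cells, and 5 were lower in Dgcr8 KO cells than Dicer KO cells with none higher. Smc1b, the meiotic form of a core cohesin subunit, had log2 levels of 5.59, 5.74 and 5.94 in WT, 6.97, 7.16 and 6.92 in Dgcr8 KO cells and 9.30, 9.42 and 9.29 in Dicer KO cells. The 3 genotypes did not overlap and rose in that order. Against WT the rise was 2.39-fold in Dgcr8 KO (log2 ratio 1.26, SE 0.0961, adjusted p = 8.4e-06) and 11.9-fold in Dicer KO (3.58, adjusted p = 1.7e-08), and Dgcr8 KO was lower than Dicer KO by 4.99-fold (adjusted p = 5.7e-07). Stag3, the meiosis-specific partner subunit of the same cohesin complexes, was 8.70, 8.71 and 8.81 in WT, 8.72, 8.94 and 8.98 in Dgcr8 KO cells and 9.81, 9.85 and 9.83 in Dicer KO cells. It rose in Dicer KO alone among the mutants: the log2 ratio was 1.09 there (SE 0.0707, adjusted p = 2.2e-06) and 0.14 in Dgcr8 KO (95% interval -0.02 to 0.30), and the mutants differed by -0.95 (adjusted p = 1.7e-05).

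Hormad1, a protein of the unsynapsed chromosome axis, rose in both mutants at both of its clusters. The first read 7.46, 7.59 and 7.88 in WT, 9.20, 9.29 and 9.10 in Dgcr8 KO cells and 9.22, 9.26 and 9.09 in Dicer KO cells. The second read 5.99, 6.26 and 6.31 in WT, 8.08, 8.28 and 8.08 in Dgcr8 KO cells and 8.54, 8.91 and 8.46 in Dicer KO cells. WT lay below both mutants at each cluster, but the clusters differed on the mutants: the first gave 1.56 and 1.55 against WT (SE 0.103) with no difference called between the mutants (0.01, 95% interval -0.22 to 0.24), and the second gave 1.96 and 2.45 (SE 0.128) with Dgcr8 KO lower than Dicer KO by 0.49 (adjusted p = 0.0206). The last call was lost without Dgcr8 KO replicate 1 (adjusted p = 0.0728), Dgcr8 KO replicate 3 (0.0724) or Dicer KO replicate 2 (0.0558). Both clusters carry the same gene annotation, but the array numbers the second away from the other clusters of chromosome 3, where Hormad1 lies. The second may therefore read a copy of the gene, and the first is the safer estimate.

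The synaptonemal complex genes proper split. Syce1, a central element protein, was 7.42, 7.37 and 7.51 in WT, 7.79, 7.80 and 7.79 in Dgcr8 KO cells and 8.07, 8.18 and 8.05 in Dicer KO cells. It rose by 0.36 (SE 0.054, adjusted p = 0.0006) and 0.67 (adjusted p = 9.4e-06), with no overlap between genotypes. Syce2, another central element protein, went the other way, at 10.19, 10.30 and 10.26 in WT, 9.24, 9.36 and 9.25 in Dgcr8 KO cells and 9.60, 9.61 and 9.60 in Dicer KO cells. Its log2 level fell by 0.96 in Dgcr8 KO (SE 0.0512, adjusted p = 9.4e-07) and by 0.65 in Dicer KO (adjusted p = 8.3e-06), and was lower in Dgcr8 KO cells than Dicer KO cells (-0.32, adjusted p = 0.00173). Sycp3, a protein of the lateral elements, was 5.72, 6.15 and 6.12 in WT, 5.19, 5.50 and 5.0 in Dgcr8 KO cells and 5.55, 5.69 and 5.54 in Dicer KO cells. Both mutants lay below WT, and the fall of 0.76 in Dgcr8 KO was called (SE 0.142, adjusted p = 0.00233) whereas the ratio of -0.41 in Dicer KO was not (adjusted p = 0.0508). Of the other lateral and transverse filament genes, Sycp1 was lower in Dgcr8 KO by 0.28 (adjusted p = 0.0313), a call lost without WT replicate 2 (adjusted p = 0.0582), WT replicate 3 (0.107), Dgcr8 KO replicate 1 (0.113) or Dgcr8 KO replicate 2 (0.0958), and Sycp2 was not called in any contrast.

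**Figure D2:**
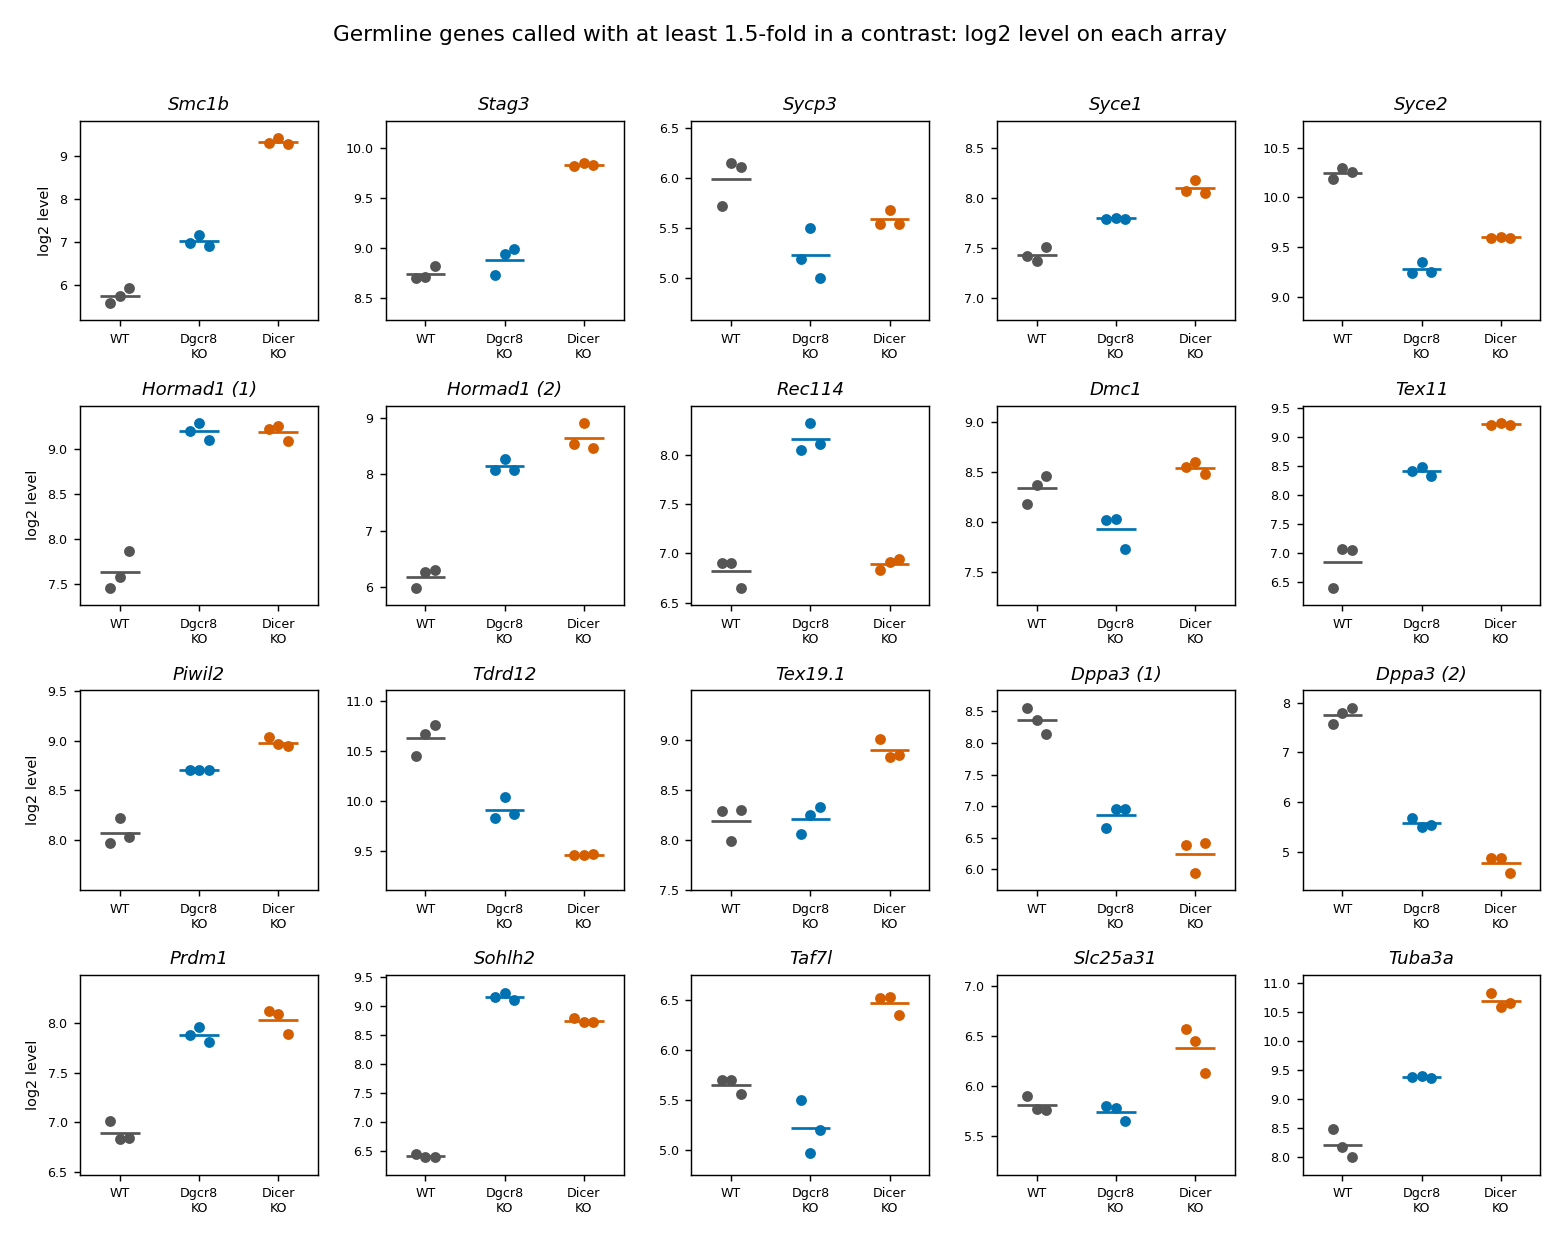
Log2 level on each of the 9 arrays for the 20 clusters (18 genes) called with at least 1.5-fold in a contrast; points are arrays, lines are genotype means, and each panel has its own vertical axis. Rec114 was called higher than WT in Dgcr8 KO cells alone (8.05 to 8.32 there). Stag3, Tex19.1 and Slc25a31 were called higher than WT in Dicer KO cells alone. Taf7l lies below WT in Dgcr8 KO and above it in Dicer KO.

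Among 7 recombination genes, 2 were higher and 1 lower in Dgcr8 KO cells, and 1 was higher in Dicer KO cells. Rec114, which is needed to form the DNA breaks that start recombination, was 6.90, 6.90 and 6.65 in WT, 8.05, 8.32 and 8.11 in Dgcr8 KO cells and 6.84, 6.91 and 6.94 in Dicer KO cells. Dgcr8 KO lay above both other genotypes, and WT and Dicer KO overlapped. The rise in Dgcr8 KO was 2.53-fold (1.34, SE 0.0900, adjusted p = 3.7e-06), the ratio in Dicer KO was 0.08 (95% interval -0.13 to 0.28), and the mutants differed by 1.26 (adjusted p = 1.3e-05). Rec114 was the member with the largest difference in favour of Dgcr8 KO. Tex11, an X-linked gene needed for crossovers, was 6.40, 7.07 and 7.05 in WT, 8.41, 8.48 and 8.32 in Dgcr8 KO cells and 9.20, 9.24 and 9.20 in Dicer KO cells. It rose by 1.56 (SE 0.155, adjusted p = 4.4e-05) and 2.37 (adjusted p = 2.3e-06), and was lower in Dgcr8 KO cells than Dicer KO cells by 0.81 (adjusted p = 0.0045). WT replicate 1 lay below the other WT arrays for Tex11.

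Dmc1, the meiotic recombinase that pairs a cut strand with the homologue, was 8.18, 8.37 and 8.46 in WT, 8.02, 8.03 and 7.73 in Dgcr8 KO cells and 8.55, 8.60 and 8.48 in Dicer KO cells. It was the only recombination gene that fell, by 0.41 in Dgcr8 KO (SE 0.0963, adjusted p = 0.00871). It was also lower in Dgcr8 KO cells than Dicer KO cells by 0.62 (adjusted p = 0.00148), and its ratio of 0.21 in Dicer KO was not called. Spo11, the enzyme that makes the breaks, was 4.24 to 4.65 over all 9 arrays and had ratios of -0.01 and 0.05. Mei1, Msh4 and Msh5 were called in no contrast either, with ratios to WT between -0.20 and 0.01.

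The 12 piRNA and transposon control genes gave more falls than rises in Dgcr8 KO cells, at 5 and 1, while in Dicer KO cells 3 fell and 2 rose. Piwil2, a Piwi protein of fetal and adult male germ cells, was 7.97, 8.23 and 8.03 in WT, 8.70, 8.70 and 8.70 in Dgcr8 KO cells and 9.03, 8.96 and 8.94 in Dicer KO cells. It rose by 0.63 (SE 0.0663, adjusted p = 6.8e-05) and 0.90 (adjusted p = 5.1e-06), with no overlap of the genotypes. The difference between the mutants (-0.28, adjusted p = 0.0143) was lost without Dicer KO replicate 1 (adjusted p = 0.0582). Tdrd12, a Tudor protein of secondary piRNA production, was 10.45, 10.67 and 10.76 in WT, 9.82, 10.04 and 9.87 in Dgcr8 KO cells and 9.45, 9.46 and 9.46 in Dicer KO cells. It fell by 0.72 (SE 0.0843, adjusted p = 0.000135) and 1.17 (adjusted p = 4.5e-06), in the order WT, Dgcr8 KO, Dicer KO.

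Tex19.1, which limits transposons in germ cells and placenta, was 8.29, 7.99 and 8.30 in WT, 8.05, 8.25 and 8.33 in Dgcr8 KO cells and 9.01, 8.83 and 8.85 in Dicer KO cells. WT and Dgcr8 KO overlapped and Dicer KO lay above both. Its ratio was 0.71 in Dicer KO (SE 0.102, adjusted p = 0.000434), 0.02 in Dgcr8 KO (95% interval -0.21 to 0.25) and -0.69 between the mutants (adjusted p = 0.00108). Tdrd1 and Tdrkh, both Tudor proteins that bind Piwi proteins, had low mean levels over the arrays (5.62 and 5.59). They were lower in both mutants, Tdrd1 by 0.31 and 0.41 and Tdrkh by 0.42 and 0.57 (adjusted p at most 0.00242). Ddx4, the Vasa RNA helicase, fell by 0.35 in Dgcr8 KO (adjusted p = 0.00994) and had a ratio of -0.22 in Dicer KO that was not called. Piwil4, the nuclear Piwi protein, fell by 0.24 in Dgcr8 KO (adjusted p = 0.0341), a call lost without WT replicate 1 (adjusted p = 0.0972), WT replicate 2 (0.0755), Dgcr8 KO replicate 1 (0.118) or Dgcr8 KO replicate 2 (0.10). Mael, Mov10l1, Tdrd9, Asz1 and Gtsf1 were called in no contrast.

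The 8 clusters for specification and regulation of germ cells held both the largest rise in Dgcr8 KO cells and the largest fall in either mutant. Sohlh2, a helix-loop-helix transcription factor of early spermatogonia and oocytes, was 6.45, 6.40 and 6.39 in WT, 9.15, 9.24 and 9.11 in Dgcr8 KO cells and 8.79, 8.73 and 8.73 in Dicer KO cells. It rose 6.74-fold in Dgcr8 KO (2.75, SE 0.0496, adjusted p = 2.4e-09) and 5.06-fold in Dicer KO (2.34, adjusted p = 6.0e-09), and was higher in Dgcr8 KO cells than Dicer KO cells (0.41, adjusted p = 0.000298). Sohlh2 was the only gene of the set that rose in both mutants and was higher in Dgcr8 KO cells than Dicer KO cells. Prdm1 (Blimp1), the repressor that sets aside primordial germ cells, was 7.01, 6.84 and 6.84 in WT, 7.88, 7.96 and 7.81 in Dgcr8 KO cells and 8.12, 8.09 and 7.89 in Dicer KO cells. It rose by 0.98 and 1.13 (SE 0.0774, adjusted p = 1.0e-05 and 3.1e-06), and the mutants overlapped. Dazl, an RNA-binding protein of germ cells, rose by 0.56 in Dicer KO (adjusted p = 0.000583) and by 0.32 in Dgcr8 KO (adjusted p = 0.016). The rise of Dazl in Dgcr8 KO was not called without WT replicate 2 (adjusted p = 0.0601) or without Dgcr8 KO replicate 1 (adjusted p = 0.0565).

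Dppa3 (Stella), which protects the maternal genome from demethylation in the zygote and is also made by ES cells and primordial germ cells, fell in both mutants at both clusters. The first read 8.56, 8.37 and 8.15 in WT, 6.65, 6.96 and 6.96 in Dgcr8 KO cells and 6.38, 5.95 and 6.41 in Dicer KO cells. The second read 7.58, 7.80 and 7.90 in WT, 5.69, 5.51 and 5.55 in Dgcr8 KO cells and 4.89, 4.89 and 4.59 in Dicer KO cells. At each cluster the 3 genotypes did not overlap and Dicer KO was lowest. The falls were 2.84-fold and 4.32-fold at the first (SE of the log2 ratio 0.149) and 4.51-fold and 7.83-fold at the second (SE 0.105), with adjusted p of at most 4.3e-05. Dgcr8 KO was higher than Dicer KO by 0.61 at the first (adjusted p = 0.0154), a call lost without Dgcr8 KO replicate 3 (adjusted p = 0.0590), and by 0.80 at the second (adjusted p = 0.000504). Both clusters carry the same Dppa3 annotation, but the array numbers the second among clusters of chromosome X, whereas Dppa3 lies on chromosome 6. The second may therefore read a copy of the gene. The falls at the first alone (-1.50 and -2.11) are the smaller and safer estimate. The oocyte regulators Figla and Nobox, and Stk31, were called in no contrast.

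Among the 5 genes of spermatogenic cells, 1 rose and 2 fell in Dgcr8 KO cells, while 3 rose and 1 fell in Dicer KO cells. Tuba3a, an alpha tubulin of the testis, was 8.47, 8.17 and 7.99 in WT, 9.37, 9.39 and 9.35 in Dgcr8 KO cells and 10.84, 10.59 and 10.65 in Dicer KO cells. It rose 2.23-fold (1.16, SE 0.113, adjusted p = 3.9e-05) and 5.58-fold (2.48, adjusted p = 2.4e-07), and Dgcr8 KO was lower than Dicer KO by 1.32 on the log2 scale (adjusted p = 3.9e-05). Taf7l, an X-linked paralog of the general transcription factor subunit Taf7, was 5.70, 5.70 and 5.56 in WT, 5.50, 4.97 and 5.20 in Dgcr8 KO cells and 6.52, 6.53 and 6.35 in Dicer KO cells. Taf7l was the only member called in opposite directions in the mutants, at -0.43 in Dgcr8 KO (SE 0.121, adjusted p = 0.0207) and 0.82 in Dicer KO (adjusted p = 0.000496), with a difference of -1.25 between them (adjusted p = 8.1e-05). Leaving out an array ended the call of the Taf7l fall in Dgcr8 KO for WT replicate 1 (adjusted p = 0.0599), WT replicate 2 (0.0667), Dgcr8 KO replicate 2 (0.0538) or Dgcr8 KO replicate 3 (0.0622).

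Slc25a31, the ADP/ATP carrier of sperm, was 5.89, 5.77 and 5.76 in WT, 5.80, 5.78 and 5.65 in Dgcr8 KO cells and 6.57, 6.45 and 6.12 in Dicer KO cells. It rose in Dicer KO by 0.57 (SE 0.105, adjusted p = 0.00186), had a ratio of -0.07 in Dgcr8 KO, and differed by -0.64 between the mutants (adjusted p = 0.00189). Tex101, a surface protein of germ cells, was lower by 0.30 in Dgcr8 KO (adjusted p = 0.0127) and by 0.22 in Dicer KO (adjusted p = 0.0469). The Dicer KO call for Tex101 was lost on leaving out WT replicate 1 (adjusted p = 0.137), WT replicate 3 (0.0948), Dgcr8 KO replicate 3 (0.0659) or any of the Dicer KO arrays (0.0848 to 0.123). Brdt, a bromodomain protein of spermatocytes, was called in no contrast.

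In all, 14 members were called in no contrast: Sycp2, Mei1, Spo11, Msh4, Msh5, Mael, Mov10l1, Tdrd9, Asz1, Gtsf1, Figla, Nobox, Stk31 and Brdt. Their mean log2 levels within a genotype were 3.83 to 7.29. Their ratios were -0.36 to 0.35, with 95% intervals that stayed between -0.64 and 0.70. The table gives no signal of background probes, so whether these genes were expressed at all cannot be read from it. The same holds for called members at low levels. Among them, mean levels over the arrays were 4.73 for Sycp1, 5.46 for Tex101, 5.55 for Piwil4, 5.59 for Tdrkh and 5.62 for Tdrd1. Over all transcripts counted, the 25th percentile of the mean level was 5.49 and the median 6.92.

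Several members have a close relative that is used in body cells, and these were read from the same fit. The list of relatives held 21 genes measured by 25 clusters, among them the meiotic cohesin subunit Rec8, the germline gene Tex19.2, and Xrn2, which is no paralog of a member. In Dgcr8 KO cells 7 clusters rose and 4 fell, in Dicer KO cells 15 rose (60%, beside 17.77% of all transcripts) and 4 fell, and 4 had higher and 13 lower levels (52%, beside 13.4%) in Dgcr8 KO cells than Dicer KO cells. Smc1a, the cohesin subunit of mitotic cells, had ratios of 0.12 in Dgcr8 KO (not called) and 0.50 in Dicer KO (adjusted p = 1.9e-05), beside 1.26 and 3.58 for Smc1b. Stag1 was not called in either mutant (-0.03 and 0.04), and Stag2 fell by 0.32 in Dgcr8 KO (adjusted p = 0.0316) and was not called in Dicer KO (0.14), whereas Stag3 rose in Dicer KO. Taf7 had ratios of -0.15 (not called) and 0.25 (adjusted p = 0.0372), and Tex19.2, a germline paralog of Tex19.1, of -0.11 and -0.06, neither called. Slc25a4, the carrier of heart and muscle, fell by 0.99 and 0.62 (adjusted p = 3.9e-07 and 4.6e-06), and Slc25a5 rose in Dicer KO by 0.26 to 0.27 at its 3 clusters. Ago1, an Argonaute relative of the Piwi proteins, rose by 1.24 and 0.98 (adjusted p = 2.4e-07 and 6.2e-07), and Mov10, the relative of Mov10l1, by 1.44 in both. Differences between a member and its relative were not tested.

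**Figure D3:**
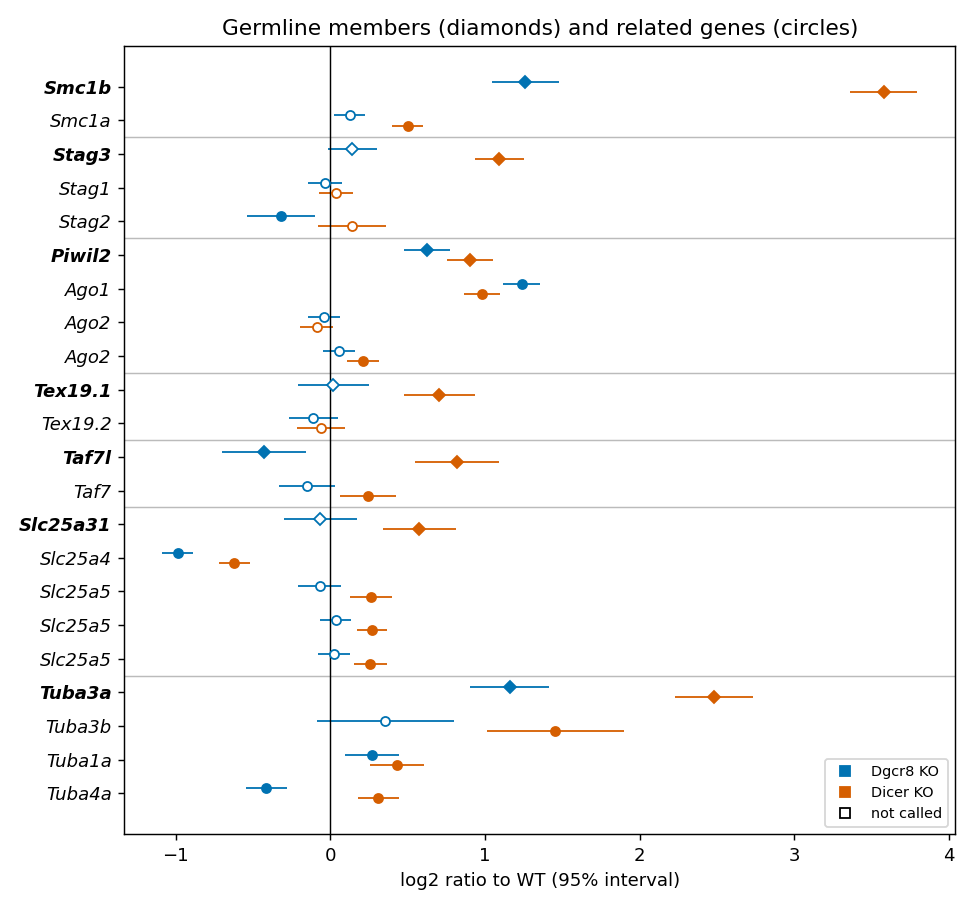
Log2 ratios to WT with 95% intervals for 7 germline members (diamonds, bold names) and related genes (circles) in Dgcr8 KO (blue) and Dicer KO (orange); open symbols were not called, and a gene on several lines has several clusters. Smc1b (1.26 and 3.58) stands to the right of Smc1a (0.12 and 0.50), and Slc25a4 is left of 0 in both mutants while Slc25a31 is right of 0 in Dicer KO.

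The tubulins differed among themselves. Tuba1a rose by 0.27 and 0.43 (adjusted p = 0.0231 and 0.0017), and Tuba4a fell by 0.41 in Dgcr8 KO and rose by 0.31 in Dicer KO (adjusted p = 0.000452 and 0.0024). Tuba3b, whose sequence is nearly identical to that of Tuba3a, had ratios of 0.35 (not called) and 1.46 (adjusted p = 0.00028). Signal of Tuba3a and Tuba3b may be shared between their probes, so the level of each is uncertain.

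A longer list of other germline and meiosis genes, 58 of which were measured by 59 clusters, was read beside the members. In Dgcr8 KO cells 13 clusters rose (22.0%, beside 15.72% of all transcripts) and 12 fell (20.3%, beside 17.29%). In Dicer KO cells 13 rose (22.0%, beside 17.77%) and 14 fell (23.7%, beside 19.07%). Between the mutants 8 had higher levels (13.6%, beside 11.19%) and 10 lower levels (16.9%, beside 13.4%) in Dgcr8 KO cells than Dicer KO cells. The medians of their log2 ratios were -0.005, -0.05 and 0.02. Prdm14, a regulator of naive pluripotency and primordial germ cells, rose by 1.6 and 1.93 (adjusted p = 6.3e-08 and 1.7e-08), and Kit, the receptor for stem cell factor, by 1.42 and 1.16 (adjusted p = 1.9e-07 and 3.7e-07). Rhox9, an X-linked homeobox gene, rose by 0.88 and 2.05 (adjusted p = 3.1e-05 and 1.2e-07). Tex13b, also X-linked, rose by 2.76 in Dicer KO (adjusted p = 3.2e-07) and had a ratio of -0.08 in Dgcr8 KO. Genes that fell in both mutants included Usp26 (-1.71 and -1.53), Tdrd5 (-1.20 and -1.14) and Tex15 (-1.71 and -0.75), each with an adjusted p of at most 0.0047.

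Regulators of germline promoters formed another list, with 31 genes measured by 41 clusters: DNA methyltransferases, readers of methylated DNA, Polycomb and other repressors, and also the Tet enzymes, which oxidise methylated DNA and so work against silencing. By gene, 11 had a cluster that rose and 8 a cluster that fell in Dgcr8 KO cells, and 10 and 10 did so in Dicer KO cells. By cluster, 29.3% rose and 34.1% fell in Dgcr8 KO, beside 15.72% and 17.29% of all transcripts. In Dicer KO 24.4% rose and 29.3% fell, beside 17.77% and 19.07%. Tet1, Tet2 and Tet3 are among those that rose in Dgcr8 KO, and Tet2 and Tet3 among those that rose in Dicer KO, so the counts are not counts of silencers. The median ratios over the clusters were 0.03 and 0.09. The de novo DNA methyltransferases Dnmt3a (-1.71 and -2.08) and Dnmt3b (-1.32 and -1.36) and their cofactor Dnmt3l (-0.85 and -1.47) were lower in both mutants (adjusted p at most 1.7e-06). Zbtb38 (1.73 and 1.33) and Mbd2 (1.09 and 1.25), which bind methylated DNA, and Rbl2 (1.25 and 1.42), a retinoblastoma relative that represses E2F targets, were higher (adjusted p at most 9.0e-07). The maintenance enzyme Dnmt1 rose by 0.18 in Dgcr8 KO (adjusted p = 0.0152), with 0.13 in Dicer KO not called, and E2f6 was not called in either (-0.02 and 0.24). The part of these genes in the levels of the germline members was not tested.

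The promoter windows of the members, 250 bases before to 50 after the start, were found for 35 of 39 genes. Piwil2, Spo11, Tex11 and Dppa3 were not matched. A gene with several windows was scored by the window with the most CpG pairs, and held a motif when any of its windows did. By gene, the members had a median of 18 CpG pairs, beside 8 over 26742 genes (quartiles 3 and 22). The medians were 18.5 for the 12 genes called higher in at least 1 mutant, 20 for the 10 called lower only and 16 for the 13 not called. GCGGGAA on either strand was in 10 of 35 genes (28.6%), beside 5.33% of all genes, and CACGTG, which reads the same on both strands, was in 15 of 35 (42.9%), beside 8.11%. By window, GCGGGAA was in 11 of the members' 42 (26.2%), beside 4.63% of 32544 windows, and CACGTG in 18 (42.9%), beside 7.17%. Neither motif contains the other. Each contains a CpG pair, and the genes used as background were not matched to the members for CpG pairs.

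By call, GCGGGAA was found in 6 of the 12 genes called higher (Hormad1, Rec114, Slc25a31, Smc1b, Stag3 and Tuba3a), in 3 of the 10 called lower only (Ddx4, Syce2 and Sycp3) and in 1 of the 13 not called (Msh5). CACGTG was in 5 of 12, 5 of 10 and 5 of 13. These are counts of letters in a window, with no test between the classes.

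Markers of other cells were read on the same arrays. Fewer cells that express a gene and less RNA of it per cell cannot be told apart in these bulk samples. Of 14 fibroblast clusters, which would mark feeder cells, 2 were higher in Dgcr8 KO cells and none was lower, and 1 was higher and 1 lower in Dicer KO cells. The medians of the fibroblast markers were 6.10 to 6.43 on all arrays, and their summed linear levels were 3541 to 3721 in WT, 4675 to 4872 in Dgcr8 KO and 3924 to 3942 in Dicer KO cells. Fn1, a matrix protein that ES cells also make, rose by 0.54 and 0.20. Twist1 rose by 0.40 in Dgcr8 KO (adjusted p = 0.0062), and Dcn fell by 0.26 in Dicer KO (adjusted p = 0.0376). The collagen genes Col1a1, Col1a2 and Col3a1, picked after their values were seen, were not called in either mutant. Of 8 clusters for Sertoli and granulosa cells, the support cells of the gonad, 1 was higher in Dgcr8 KO and 1 lower in Dicer KO, with summed levels of 790 to 855 in WT, 830 to 902 in Dgcr8 KO and 668 to 674 in Dicer KO.

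Primordial germ cell markers had 11 clusters, among them the members Prdm1, Ddx4, Dazl and Dppa3. In Dgcr8 KO 6 were higher (54.5%, beside 15.72% of all transcripts) and 3 lower (27.3%, beside 17.29%). In Dicer KO cells 4 were higher (36.4%, beside 17.77%) and 4 lower (36.4%, beside 19.07%). Dppa3 counts among the lower at both its clusters in each mutant. The medians were 7.58 to 7.90 in WT, 7.81 to 7.96 in Dgcr8 KO and 7.89 to 8.12 in Dicer KO. Summed levels, in which Ifitm3 weighs most, were 5734 to 6096, 7689 to 8176 and 4704 to 4967. Ifitm3, an early marker of these cells, rose by 0.50 in Dgcr8 KO and fell by 0.82 in Dicer KO. Nanos3, needed for their survival, rose by 0.80 in Dgcr8 KO and was not called in Dicer KO (-0.11). Of 11 genes listed for 2-cell like cells, only 4 were measured, by 5 clusters. In each mutant 3 clusters were higher, and 2 of these were clusters of Calcoco2 (2.04 and 2.72 in Dgcr8 KO, 2.59 and 3.10 in Dicer KO). The other was Tcstv3 (0.26 and 0.27). Eif1a fell by 0.22 in Dgcr8 KO (adjusted p = 0.0046), and none of the 5 was lower in Dicer KO. The part of these cell markers in the levels of the germline members was not tested.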

How the data were processed

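RNA of 9 ES cell samples was measured on 1-colour Affymetrix mouse gene arrays. The deposited values are log2 levels normalized by the authors; the methods name RMA and the submitters' processing notes name GCRMA, with versions not given in the sources used here. They were used without further normalization. Symbols came from the platform annotation, chromosomes and promoter windows from RefSeq GRCm38.p6 by symbol. Of 35557 clusters, 23002 were counted, leaving out those without a symbol and those holding only miRNA (326), Y-linked (78) or mitochondrial (4) genes. With R 4.3.3 and limma 3.58.1, 1 mean for each genotype was estimated from the 9 arrays together (lmFit, eBayes, 6 residual degrees of freedom). The 3 contrasts were adjusted by Benjamini-Hochberg over all transcripts counted and called at 0.05. The study's methods name SAM, which was run as an alternative.

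The members and gene lists were chosen with earlier results of these data known, and the lists came partly from that work. Every member is named. Values on every array are given for members called with at least 1.5-fold in any contrast, and from each other list at most the 3 genes called per direction with the smallest adjusted p, plus relatives of members. Relatives outside that rule, Dnmt1, E2f6, Fn1, the collagens and Calcoco2 were chosen after their values were seen. In simulated data with 200 genes changed among 23002, for Dgcr8 KO against WT, limma recovered 64.2% of changes of 0.5 on the log2 scale, 94.0% of 1 and 100% of 2. The simulation shuffled the spreads between genes and changed far fewer genes than were called in the data (15.72% higher and 17.29% lower). Its shares therefore do not measure how well changes of the members are found. The number of arrays, 3 per genotype, limits the precision.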

Additional observations from a re-analysis of the deposited data

How the results depend on the processing

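The members' calls were recomputed with SAM, with the pair of genotypes alone, with all rows of the table, without the dimmest 25% of transcripts, with single-symbol clusters only, with arrays centred on their medians, with cyclic loess, with a trended and robust eBayes, with a 1.5-fold requirement, with an adjusted p under 0.01, with a replicate block and leaving out arrays. A ratio changes only with centring, cyclic loess or leaving out an array of a compared genotype. In the other settings its sign was fixed. Of 1299 alternative values of 62 called ratios, 0 changed sign and 73 lost the call, 31 of them on leaving out arrays. Apart from the fold and p requirements, 9 ratios lost it, those of Sycp1, Piwil4, Taf7l, Dazl and Tex101 in Dgcr8 KO, Tex101 in Dicer KO, and 1 cluster of Hormad1, 1 of Dppa3 and Piwil2 between the mutants. Requiring 1.5-fold left 5 clusters (4 genes) lower in Dgcr8 KO, 4 (3 genes) lower in Dicer KO and 3 (2 genes) higher in Dgcr8 KO than in Dicer KO, beside 3.54%, 3.69% and 2.21% of all transcripts; Dppa3 counts at both its clusters in each. Without the dimmest transcripts, the members' median ratio moved to 0.21 in Dicer KO and to -0.24 between the mutants, since members below that level were left out. SAM called 11 higher and 10 lower, 15 and 7, and 5 and 16 in the 3 contrasts, beside 2655 and 2406, 3606 and 3664, and 4569 (19.9%) and 3897 (16.9%) of all 23002 transcripts. Centring the arrays gave 11 and 13, 14 and 7, and 5 and 14. Leaving out each array in turn gave 10 to 11 higher and 10 to 13 lower in Dgcr8 KO, 14 and 6 to 9 in Dicer KO, and 4 to 5 and 11 to 14 between the mutants. Deviations from the genotype mean had correlations of -0.20 to 0.34 over the 9 pairs of arrays with the same replicate number. Over the 18 pairs with different numbers they were -0.46 to 0.32. With 3 arrays per genotype, these values cannot decide whether the numbers pair the arrays. With the replicate block the counts were 11 and 13, 14 and 8, and 5 and 12. The setting that drops both WT replicate 1 and Dgcr8 KO replicate 2 was chosen after seeing the data. The number of arrays limits small changes at low levels.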
